A study of Rattus norvegicus with 20 samples.

Results

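Ceacam1, Erf and Gsk3a are 3 of the 26134 named rows in the count tables of a rat spinal cord injury study, and they name genes that lie close together on rat chromosome 1. The rows were picked by name, with their levels against sham, their course over time in each segment and their shared movement over libraries already known. Those measures are therefore given here as a description, without a p-value. All 3 rows passed the filter on low counts, which kept 12528 rows, and the lowest library of each held 38, 27 and 24 reads for Ceacam1, Erf and Gsk3a. The symbols are used as row labels, because the reads in many rows do not go with the symbol: defining markers such as Mag, Aif1, Tmem119, S100a8, Mpo and Kdr were at 0 in all 20 libraries.

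The cords came from rats with a contusion, a blunt impact to the cord, or from sham rats, and total RNA was sequenced after ribosomal RNA had been removed. The 10 groups held 2 libraries each. They were sham (labelled day 0, segment not given in the labels) and, at 1, 14 and 28 days post injury (DPI), the injury epicenter, the segment on its rostral (head) side and the segment on its caudal (tail) side. Strain, sex, age and whether a library stands for 1 animal are not given in the labels, so the spread within a group may be technical. Libraries held 1216863 to 5233315 reads in named rows. In a principal component analysis of the tested rows that averaged 5 CPM or more, the 4 libraries numbered 3 (1 sham and the 3 DPI-28 segments) lay apart at one end of the first component, and epicenter and caudal DPI-1 replicate 2 lay at the other end. Fold changes against sham are also given without the libraries numbered 3, and those at DPI-1 in the epicenter and caudal segment without these replicate-2 libraries. Pooled correlations are also given without the libraries numbered 3. Correlations were not computed without both replicate-2 libraries, and read ratios are given with all libraries.

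Ceacam1 encodes a cell adhesion receptor of the CEACAM family that is known from epithelium, endothelium and leukocytes and that carries inhibitory motifs in its cytoplasmic tail. Erf encodes a transcriptional repressor with an ETS DNA-binding domain, which leaves the nucleus when the kinase ERK phosphorylates it. Gsk3a encodes glycogen synthase kinase 3 alpha, a serine/threonine kinase that is inhibited by insulin signalling and that, like its close relative Gsk3b, takes part in Wnt signalling and the phosphorylation of tau.

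The stretch before the start of each named gene is shown, to set out what the promoters share. The symbols are row labels, so the reads of a row may not come from the gene whose promoter is shown. Any part of the promoters in the levels was not tested. The sequences are the 250 bases before the annotated start in RefSeq on GRCr8, where all 3 members had an entry. They are written 5′ to 3′ on the gene's strand, in lower case, with capitals for a GC box, read as GGGCGG or, where it lies on the other strand, as the reverse complement CCGCCC.
Ceacam1, chr1:90187793-90188042, minus strand: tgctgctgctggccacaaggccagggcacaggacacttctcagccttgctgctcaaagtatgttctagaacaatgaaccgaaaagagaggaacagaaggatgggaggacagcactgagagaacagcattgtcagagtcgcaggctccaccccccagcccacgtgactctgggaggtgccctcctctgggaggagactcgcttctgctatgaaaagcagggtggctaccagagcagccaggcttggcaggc
Erf, chr1:89966214-89966463, minus strand: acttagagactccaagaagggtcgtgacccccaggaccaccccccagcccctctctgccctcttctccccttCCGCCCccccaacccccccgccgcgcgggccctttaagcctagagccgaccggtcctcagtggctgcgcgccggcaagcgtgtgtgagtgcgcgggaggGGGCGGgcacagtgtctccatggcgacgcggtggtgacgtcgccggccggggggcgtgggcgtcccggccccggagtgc
Gsk3a, chr1:89953515-89953764, minus strand: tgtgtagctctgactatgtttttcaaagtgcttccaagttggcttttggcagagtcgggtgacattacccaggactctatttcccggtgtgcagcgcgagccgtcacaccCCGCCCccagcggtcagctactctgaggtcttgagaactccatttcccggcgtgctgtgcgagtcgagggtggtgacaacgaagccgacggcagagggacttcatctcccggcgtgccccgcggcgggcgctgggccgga

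The Erf stretch held 2 GC boxes, the Gsk3a stretch 1 and the Ceacam1 stretch 0. The motif occurred in 30.5% of 33469 promoter stretches of the same length. Erf and Gsk3a also had many CG dinucleotides, 26 and 21, against a median of 5 over all stretches, and Ceacam1 had 4. The share of G and C was 73.2% for Erf, 61.2% for Gsk3a and 57.6% for Ceacam1, where the median was 51.2%. Other motifs were searched on both strands and had 0 matches in each of the 3 stretches. These were the TATA box as TATAAA (in 12.9% of all stretches), the CCAAT box as CCAAT (34.0%), the core bound by ETS factors as CCGGAA (12.6%), the AP-1 site as TGACTCA (4.05%) and the CRE site as TGACGTCA (1.59%). These matches describe letters in RefSeq and were not set against any measure of binding.

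Levels are given as CPM, the reads of a row scaled to the reads in named rows after trimmed mean of M-values (TMM) factors. CPM values carry no gene length and are compared within a row only. In bulk tissue, fewer cells of a type and less RNA per cell cannot be told apart. The row Ceacam1 had 31.5 and 16.8 CPM in the sham libraries. One day after injury it had 384.0 and 171 CPM in the epicenter, 236.0 and 135 in the rostral segment, and 154 and 71.4 in the caudal segment. The 6 DPI-1 libraries were all above both sham libraries, and the lowest of them was caudal replicate 2.

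At later days Ceacam1 was back near the sham range. At DPI-14 it had 30.6 and 36.4 CPM in the epicenter, 29.8 and 20.6 in the rostral segment, and 31.7 and 21.8 in the caudal segment. At DPI-28 it had 61.6 and 37.5 CPM in the epicenter, 38.5 and 31.0 in the rostral segment, and 31.6 and 17.3 in the caudal segment. All 3 segments overlapped sham at DPI-14. At DPI-28 both epicenter libraries lay above sham, while the adjacent segments did not separate from it.

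The row Erf had 38.9 CPM in sham replicate 1 and 11.9 in sham replicate 3, the widest gap between sham libraries among the 3 rows. At DPI-1 it had 177.0 and 204 CPM in the epicenter, 113 and 126 in the rostral segment, and 81.5 and 180 in the caudal segment, in the order replicate 1, replicate 2. All 6 lay above both sham libraries. Its highest libraries were the epicenter pair and caudal replicate 2, the reverse of Ceacam1, which had its lowest DPI-1 level in that caudal library.

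The later levels of Erf stayed higher in the epicenter than beside it. At DPI-14 it had 86.0 and 58.5 CPM in the epicenter, 38.4 and 40.2 in the rostral segment, and 53.7 and 41.4 in the caudal segment. At DPI-28 it had 46.2 and 70.1 CPM in the epicenter, 26.9 and 40.8 in the rostral segment, and 23.8 and 41.8 in the caudal segment. Epicenter and caudal libraries lay above sham at DPI-14, and only the epicenter did so at DPI-28.

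The row Gsk3a had 19.4 and 10.6 CPM in sham. At DPI-1 it had 111 and 119 CPM in the epicenter, 75.0 and 73.2 in the rostral segment, and 66.5 and 145 in the caudal segment. The epicenter and rostral pairs were close, with means of 115 ± 5.32 and 74.1 ± 1.28 CPM (SD, n = 2), and the caudal pair was far apart at 106 ± 55.3 (SD, n = 2).

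At DPI-14 Gsk3a had 47.9 and 26.5 CPM in the epicenter, 38.0 and 26.5 in the rostral segment, and 29.2 and 21.4 in the caudal segment. At DPI-28 it had 35.0 and 42.3 CPM in the epicenter, 14.4 and 16.02 in the rostral segment, and 21.5 and 17.2 in the caudal segment. All 6 DPI-14 libraries were above both sham libraries, as were the epicenter libraries at DPI-28, and the adjacent segments at DPI-28 overlapped sham.

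**Figure D1:**
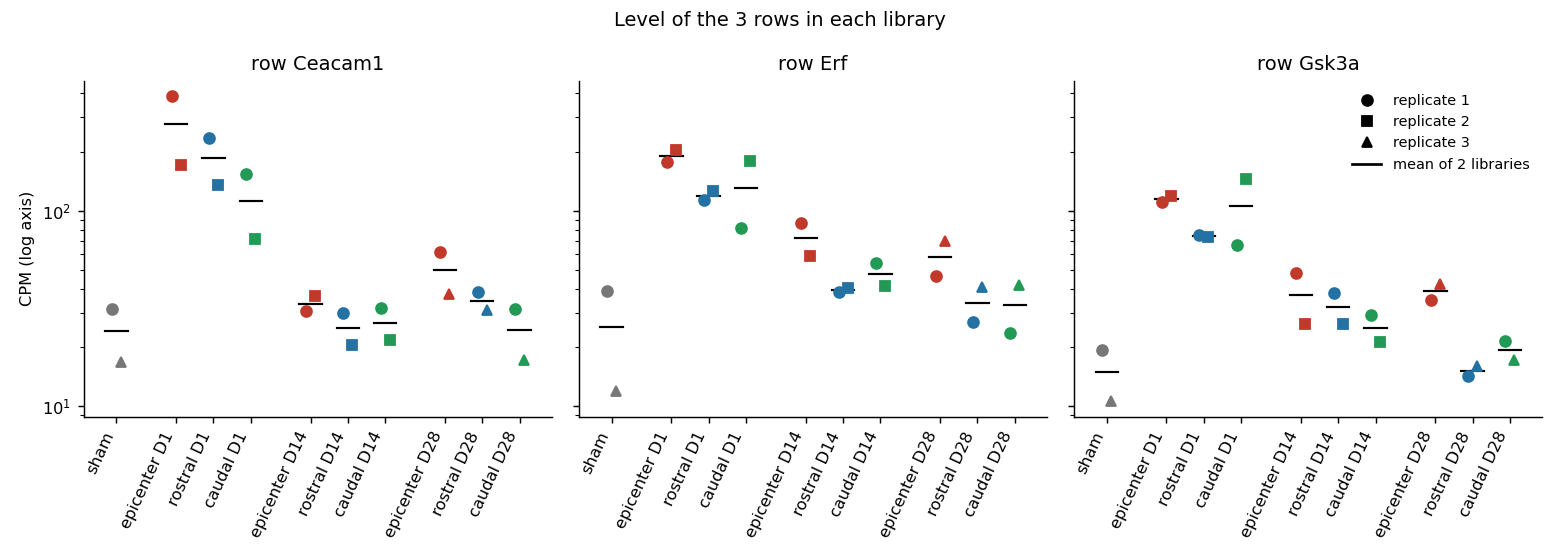
CPM on a log axis for the rows Ceacam1, Erf and Gsk3a in each of the 20 libraries, by group; the symbol shape is the replicate number and the bar is the mean of 2 libraries. The 6 DPI-1 libraries are above all others in Ceacam1 and Gsk3a, in Erf 1 epicenter DPI-14 library is above 1 caudal DPI-1 library, and the caudal DPI-1 replicates lie in opposite order in Ceacam1 and in Erf and Gsk3a.

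Ordered by their mean, the DPI-1 groups took the first 3 places in each row and sham the last. In Ceacam1 the DPI-1 order was epicenter, rostral, caudal, and in Erf and Gsk3a it was epicenter, caudal, rostral. Neighbours in these orders overlapped in their libraries. The step from the lowest DPI-1 group to the next group was free of overlap in all 3 rows. Below it, neighbouring groups overlapped except caudal over rostral DPI-14 in Erf and caudal over rostral DPI-28 in Gsk3a.

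The 6 DPI-1 libraries lay above both sham libraries for 3 of 3 members, as they did in 9.31% of all tested rows. They lay above all other 14 libraries for 2 of the 3, Ceacam1 and Gsk3a, and in 0.615% of all tested rows (77 rows). Erf missed this because epicenter DPI-14 replicate 1, at 86.0 CPM, was above caudal DPI-1 replicate 1 at 81.5. With library totals alone as the scale, 1 member was left, Gsk3a, since Ceacam1 then had 51.6 CPM in its lowest DPI-1 library and 56.0 in its highest other library, and the share of all tested rows was 0.415%. Without the libraries numbered 3 that share was 0.631%, and without the replicate-2 libraries of epicenter and caudal DPI-1 it was 0.79%. The rule that chose the rows used these levels, so nothing is read from the counts. The share for each segment at DPI-1 against sham was 19.6% (epicenter), 25.2% (rostral) and 18.4% (caudal), with 3 of 3 members in each.

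Except in the epicenter at DPI-28, later days held fewer members free of overlap with sham than DPI-1 did. At DPI-14 these were Erf and Gsk3a in the epicenter (27.2% of all tested rows), Gsk3a in the rostral segment (19.7%) and Erf and Gsk3a in the caudal segment (17.5%). At DPI-28 they were all 3 members in the epicenter (19% of all tested rows) and 0 members in the rostral (14%) and caudal (11.1%) segments. Over a whole day, 1 member, Gsk3a, had all 6 DPI-14 libraries above sham (9.46% of all tested rows), and 0 members had all 6 DPI-28 libraries (3.31%) or all 18 injured libraries (0.495%) above it. All 6 DPI-1 libraries were above all 6 DPI-14 libraries for 2 members, Ceacam1 and Gsk3a (2.95% of all tested rows). The 4 libraries numbered 3 separated from the other 16 for 0 members in either direction (8.13% of tested rows lower in them and 3.82% higher).

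Fold changes come from 1 edgeR model over all 20 libraries, as log2 values with their standard error (SE). All 9 comparisons with sham share the same 2 sham libraries. At DPI-1 in the epicenter the log2 fold change was 3.52 (SE 0.55) for Ceacam1, 2.89 (SE 0.53) for Erf and 2.92 (SE 0.45) for Gsk3a, which are 11.5-fold, 7.41-fold and 7.55-fold. They ranked 126, 202 and 198 from the highest among the 12528 tested rows, whose median was -0.12. In this comparison 18 rows, 0.144% of those tested, passed an adjusted p of 0.05 (12 of them higher, 0.0958%), and 3 of 3 members were among them, which restates how they were chosen.

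In the rostral segment at DPI-1 the log2 fold change was 2.93 (SE 0.53) for Ceacam1, 2.22 (SE 0.51) for Erf and 2.29 (SE 0.44) for Gsk3a. In the caudal segment it was 2.22 (SE 0.52), 2.34 (SE 0.52) and 2.79 (SE 0.45) in the same order. Ceacam1 thus had its smallest DPI-1 value in the caudal segment, and Erf and Gsk3a had theirs in the rostral segment. By edgeR 0 rows passed the threshold in these adjacent segments (0%) and DESeq2 called 68 rostral and 70 caudal rows, while 1166 rostral and 1170 caudal rows had an unadjusted p below 0.05.

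The size of the DPI-1 values rests in part on single libraries. Without epicenter DPI-1 replicate 1 the epicenter value of Ceacam1 was 2.80, and without caudal DPI-1 replicate 1 its caudal value was 1.54. The Erf values moved most with sham: in the epicenter they were 3.995 without sham replicate 1 and 2.30 without sham replicate 3, in the rostral segment 3.33 and 1.64, and in the caudal segment 3.44 and 1.73. Without caudal DPI-1 replicate 2 the caudal values were 1.68 for Erf and 2.15 for Gsk3a. Leaving out both replicate-2 libraries that stood apart, epicenter and caudal, gave epicenter values of 3.99, 2.80 and 2.88 and caudal values of 2.64, 1.65 and 2.11 for Ceacam1, Erf and Gsk3a. Without the 4 libraries numbered 3 the values of Ceacam1, Erf and Gsk3a were 3.16, 2.30 and 2.57 in the epicenter, 2.58, 1.64 and 1.95 in the rostral segment, and 1.84, 1.73 and 2.42 in the caudal segment. All remained above 0.

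**Figure D2:**
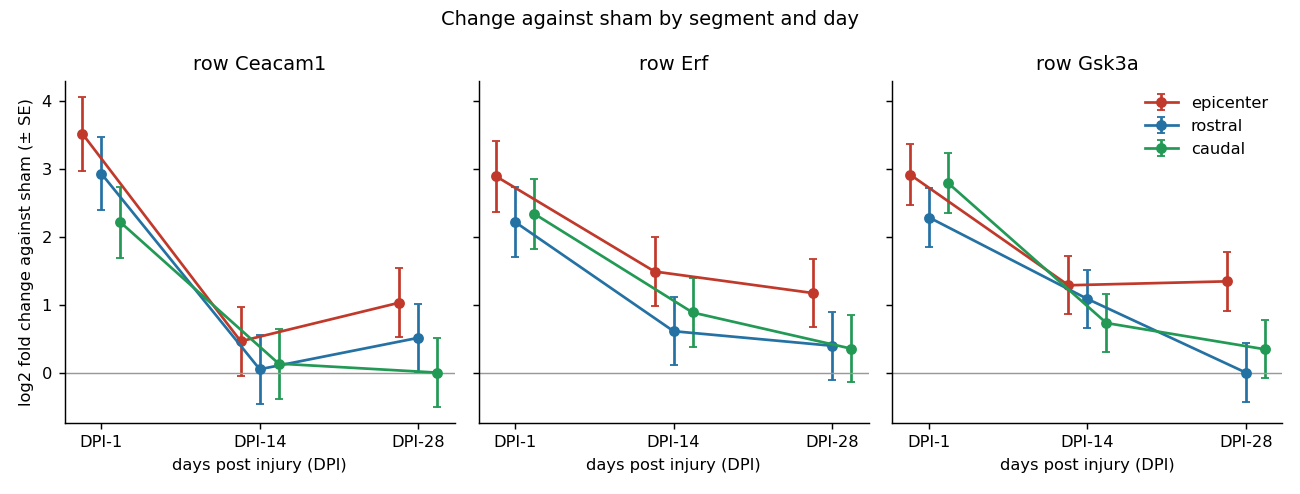
Log2 fold change against the 2 sham libraries (points, with bars of 1 SE) for each row by days post injury, with a line for each segment. Ceacam1 goes from 3.52 to 0.47 in the epicenter between DPI-1 and DPI-14, while Erf and Gsk3a stand at 1.49 and 1.29 at DPI-14.

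From DPI-1 to DPI-14 all 9 values were negative. The median over all tested rows was 0.07, 0.09 and -0.0009 in the epicenter, rostral and caudal segments. Since the rows were picked with their course over time known, the shared sign restates that choice. The log2 fold change of Ceacam1 was -3.05 (SE 0.53) in the epicenter, -2.88 (SE 0.53) in the rostral segment and -2.08 (SE 0.52) in the caudal segment. Erf had -1.40 (SE 0.50), -1.60 (SE 0.50) and -1.45 (SE 0.50), and Gsk3a had -1.63 (SE 0.42), -1.20 (SE 0.42) and -2.06 (SE 0.43). Ceacam1 had the most negative value of the 3 rows in each segment, though next to Gsk3a in the caudal one. In the epicenter 24 rows (0.192%) passed the threshold, Ceacam1 among them, again as a restatement of the choice. In the caudal segment 1 row (0.00798%) passed and 0 members did. Single DPI-1 libraries again carried part of it: Ceacam1 had -2.33 in the epicenter without replicate 1 and -1.41 in the caudal segment without replicate 1. The caudal values without replicate 2 were -0.79 for Erf and -1.41 for Gsk3a.

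Against sham at DPI-14, Ceacam1 was near 0 in the rostral and caudal segments, at 0.05 (SE 0.51) and 0.14 (SE 0.52). Erf had 0.61 (SE 0.50) and 0.89 (SE 0.50) there, and Gsk3a had 1.09 (SE 0.43) and 0.73 (SE 0.43). In the epicenter the 3 values were 0.47 (SE 0.51), 1.49 (SE 0.51) and 1.29 (SE 0.43), where 14 rows (0.112%) passed the threshold and 0 members did. The Erf values again moved with the sham library used, to 2.61, 1.73 and 2.0 in the epicenter, rostral and caudal segments without sham replicate 1, and to 0.92, 0.00 and 0.29 without sham replicate 3. Without the libraries numbered 3 the epicenter, rostral and caudal values were 0.90, 0.03 and 0.30 for Erf, 0.94, 0.75 and 0.38 for Gsk3a, and 0.10, -0.30 and -0.23 for Ceacam1, with a turn of sign for Ceacam1 in both adjacent segments.

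At DPI-28 the epicenter values against sham were 1.03 (SE 0.51) for Ceacam1, 1.17 (SE 0.50) for Erf and 1.35 (SE 0.43) for Gsk3a, where 3 rows (0.0239%) passed the threshold and 0 members did. In the rostral segment they were 0.52, 0.40 and 0.00, and in the caudal segment 0.00, 0.36 and 0.35, each within about 1 SE of 0. The Erf values at DPI-28 depended on the number a library carries. Without the libraries numbered 3 they were 0.22 in the epicenter, -0.54 in the rostral segment and -0.69 in the caudal segment. The same values were 0.94, 0.28 and 0.01 for Ceacam1 and 0.82, -0.44 and 0.16 for Gsk3a. Set against the sham library of the same number, Erf in the number-1 libraries was 1.19, 0.691 and 0.612 times sham in the epicenter, rostral and caudal segments, and in the number-3 libraries 5.88, 3.42 and 3.51 times. For Gsk3a those ratios were 1.80, 0.739 and 1.10 with number 1, and 3.995, 1.51 and 1.62 with number 3. No DPI-1 or DPI-14 library was numbered 3, so number and day cannot be told apart for those days beyond number 1. There, at DPI-1, Ceacam1 was 12.2, 7.49 and 4.88 times sham in the epicenter, rostral and caudal segments, Erf 4.55, 2.92 and 2.10 times, and Gsk3a 5.71, 3.86 and 3.42 times.

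From DPI-14 to DPI-28 the values were about 1 SE or less from 0 in 8 of 9 cases, with a range of -0.53 to 0.57. The exception was Gsk3a in the rostral segment, at -1.08 (SE 0.42).

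Position along the cord was tested within each day, with the p-value adjusted over all 12528 rows. These contrasts use no sham library, but on each day they share the injured libraries with the comparisons that chose the rows. Their p-values are therefore not independent of that choice. The epicenter was above the mean of its adjacent segments in all 9 cases (Gsk3a at DPI-14 turned to -0.07 without epicenter DPI-14 replicate 1). Over all tested rows the median difference was -0.03, -0.01 and 0.03 on days 1, 14 and 28. The 3 rows share libraries, so the 9 cases are not independent. On each day 0 of 3 members passed the threshold. At DPI-1 the log2 difference was 0.94 (SE 0.41) for Ceacam1 with an edgeR adjusted p of 0.985, 0.61 (SE 0.42) for Erf and 0.38 (SE 0.35) for Gsk3a, both with an adjusted p of 0.9999. The Ceacam1 difference was 0.23 without epicenter DPI-1 replicate 1. At DPI-14 the differences were 0.37, 0.74 and 0.38, and each edgeR adjusted p was 0.9999.

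At DPI-28 the differences were 0.77 (SE 0.42) for Ceacam1, 0.80 (SE 0.42) for Erf and 1.17 (SE 0.35) for Gsk3a. Gsk3a had the lowest unadjusted p of these 9 tests, 0.0043, with an edgeR adjusted p of 0.524. Its epicenter libraries, 35.0 and 42.3 CPM, lay above its 4 adjacent libraries, of which the highest had 21.5. The share of all tested rows with such a gap was not computed, so nothing is read from it. The edgeR adjusted p of Erf was 0.776 and that of Ceacam1 was 0.785. In each of these 3 contrasts 0% of rows passed by edgeR without a block. On days 1, 14 and 28, 629, 538 and 826 rows had an unadjusted p below 0.05, and DESeq2, an alternative count test, called 1, 11 and 38. With day and replicate number as a block, edgeR called 14 rows at DPI-14 and more at DPI-28 (closing section). The edgeR adjusted p of Gsk3a at DPI-28 was then 0.0646.

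In the tests of rostral against caudal segments, 0 members passed the threshold on any day. Ceacam1 had the largest rostral excess, 0.71 (SE 0.50) at DPI-1, and Gsk3a the largest caudal excess, -0.51 (SE 0.41) on the same day. The other 7 differences lay between -0.34 and 0.51, and every edgeR adjusted p was 1.0. Without caudal DPI-1 replicate 1 the DPI-1 value of Ceacam1 was 1.42, and without caudal DPI-1 replicate 2 those of Erf and Gsk3a were 0.56 and 0.16, with a turn of sign for the latter pair. Over all rows 0% passed by edgeR in each contrast, where 259, 168 and 151 rows had an unadjusted p below 0.05 and DESeq2 called 0, 0 and 1.

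Whether the rows move together was described with correlations of log2(CPM + 1) over libraries, as a description. The points share groups and sham and DPI-28 numbers, and differ in depth. Erf and Gsk3a followed each other most closely, with a Pearson r of 0.940 (Spearman's rho 0.874, n = 20 libraries). Each was the most correlated of 12527 other rows for the other. Ceacam1 had an r of 0.818 (rho 0.726) with Gsk3a and 0.787 (rho 0.717) with Erf, and these ranked 42 and 65 among all rows by their r with Ceacam1. For comparison, the median r with all other rows was between -0.13 and -0.10 for the 3 members, and 1.81%, 1.25% and 3.10% of rows reached 0.7 with Ceacam1, Erf and Gsk3a.

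The DPI-1 libraries lay above the rest, except that in Erf epicenter DPI-14 replicate 1 was above caudal DPI-1 replicate 1. Correlations within a day differed from the pooled ones. Among the 6 DPI-1 libraries the r of Ceacam1 was -0.01 with Erf and -0.25 with Gsk3a, whereas that of Erf with Gsk3a was 0.898. Among the 6 DPI-14 libraries the values were 0.564, 0.437 and 0.581, and among the 6 DPI-28 libraries 0.123, 0.534 and 0.698, in the order Ceacam1 with Erf, Ceacam1 with Gsk3a, Erf with Gsk3a. Spearman's rho of Erf with Gsk3a was 0.886, 0.143 and 0.657 within the 3 days, and that of Ceacam1 lay between -0.09 and 0.657 with Erf and between -0.09 and 0.257 with Gsk3a. In the 14 libraries other than DPI-1 they were 0.397, 0.475 and 0.800. After the mean of each group was subtracted, Erf and Gsk3a still had an r of 0.739, and Ceacam1 had -0.24 with Erf and -0.07 with Gsk3a. These deviations come from 10 differences between a pair of libraries. In the 16 libraries not numbered 3 the pooled values were 0.779, 0.789 and 0.949.

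**Figure D3:**
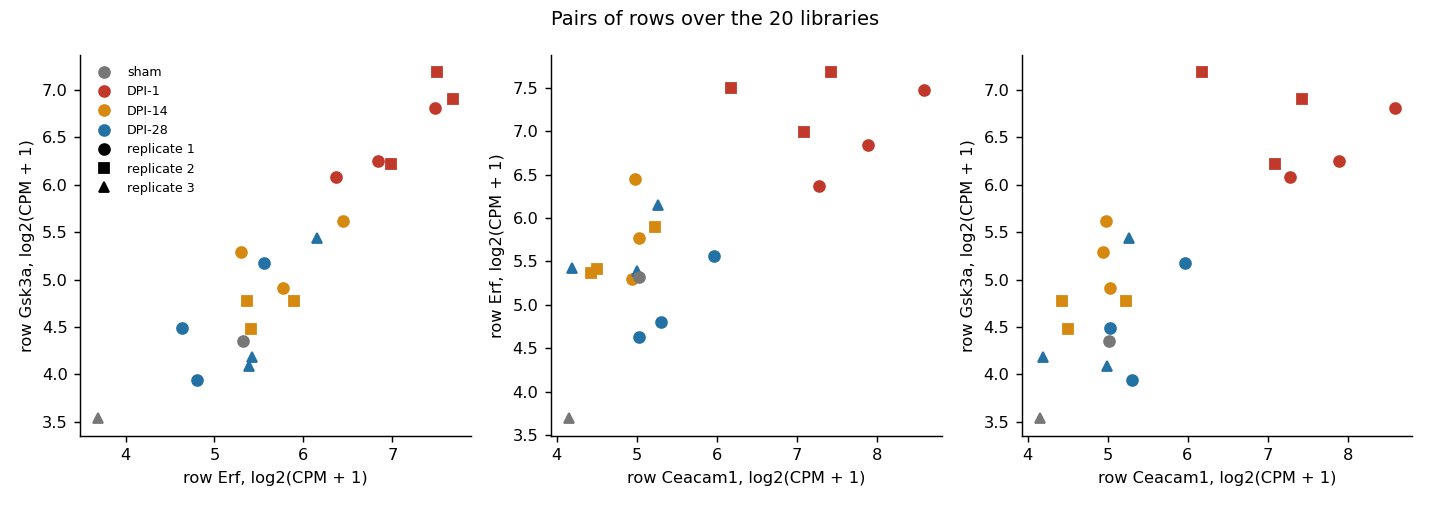
Each point is 1 of the 20 libraries, with log2(CPM + 1) of one row against another; colour gives the day and shape the replicate number. Erf and Gsk3a (left) have an r of 0.940 over all libraries and 0.581 within DPI-14, and Ceacam1 (middle and right) sets the 6 DPI-1 libraries apart with no trend among them.

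Ratios of reads within a library do not depend on the scaling between libraries. Per read of Gsk3a, Erf had 1.01 to 2.55 reads over the 20 libraries with a median of 1.69, and 1.23 to 1.72 at DPI-1. Sham libraries had 2.0 and 1.13 reads of Erf per read of Gsk3a, which enclose the DPI-1 range. The balance of Ceacam1 to Gsk3a varied more. It was 1.62 and 1.58 in sham, 0.494 to 3.46 at DPI-1, 0.638 to 1.38 at DPI-14 and 0.885 to 2.68 at DPI-28. All 6 DPI-14 libraries were below both sham libraries in this ratio. How often ratios of other rows split in this way was not computed. The lowest DPI-1 value was caudal replicate 2 and the highest was epicenter replicate 1, and in each DPI-1 segment replicate 1 was above replicate 2.

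**Figure D4:**
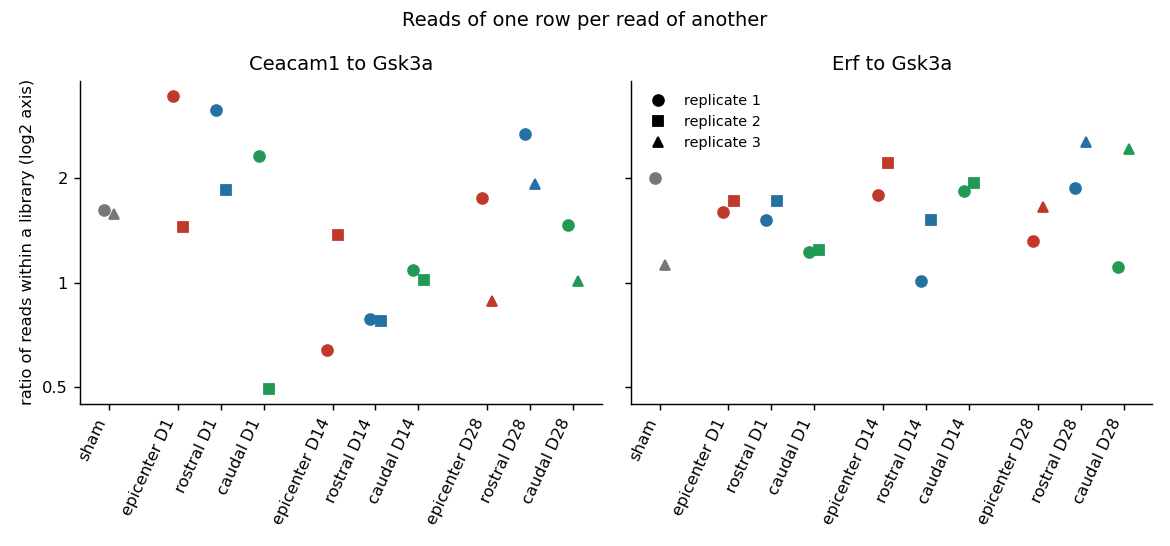
Reads of Ceacam1 (left) and of Erf (right) per read of Gsk3a in each library, on a log2 axis, by group with shapes for the replicate number. Erf to Gsk3a stays between 1.01 and 2.55, and Ceacam1 to Gsk3a spans 0.494 to 3.46 at DPI-1 alone.

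By Pearson r over the 20 libraries, rows among the 3 most like each member were Rnf121 (r 0.939) and Ogdh (0.915) for Ceacam1, Zcrb1 (0.867), Ube2h (0.854) and Epha2 (0.851) for Erf, and Trim14 (0.901), Zcrb1 (0.897) and Tex101 (0.889) for Gsk3a. Both Rnf121 and Ogdh had a higher r with Ceacam1 than Erf or Gsk3a did. After group means were subtracted, the r of Rnf121 with Ceacam1 was 0.789 and that of Ogdh was 0.372, and Zcrb1 had 0.767 with Gsk3a and 0.391 with Erf.

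The genes around the 3 members were taken from the RefSeq gene table of GRCr8, for their order only, since the counts were made on another build. Gsk3a and Erf are next to each other in that order and Ceacam1 lies past 12 further genes. From 15 genes before Gsk3a to 15 after Ceacam1 there are 42 other genes, of which 34 had a row and 24 were tested. Of the genes with a row that lie between the members, Pafah1b3, Prr19, Tmem145 and Cxcl17 had at most 1, 6, 1 and 8 reads in a library and were not tested. Tested ones described here were Cic, a transcriptional repressor downstream of ERK, Cnfn, cornifelin of the skin's cornified envelope, and Lipe, hormone-sensitive lipase.

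These 3 rows had lower fold changes than the members in the epicenter at DPI-1, and lower correlations with Gsk3a and Erf. The members were picked with these measures known, so the gap in part restates that choice. Cic had at most 16 reads in a library and Cnfn at most 43. At DPI-1 in the epicenter the log2 fold change against sham was 1.80 (SE 1.71) for Cic, 0.83 (SE 0.68) for Cnfn and -0.01 (SE 0.31) for Lipe. Their r with Gsk3a was 0.389, 0.024 and -0.23, with Erf 0.323, 0.044 and -0.15, and with Ceacam1 0.051, 0.425 and -0.11, in the same order. In the caudal segment at DPI-1 the log2 fold change of Cic against sham was 3.14 (SE 1.68), above all 3 members.

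Over all 24 tested neighbours, edgeR called 0 in each of the 21 contrasts fitted. For the epicenter at DPI-1 against sham 5 had an unadjusted p under 0.05, as did 13.4% of all tested rows, and DESeq2 called 0. Over all contrasts DESeq2 called 1, Ccdc97 for caudal DPI-14 against DPI-1 (adjusted p 0.0414), named after its value was seen. The log2 fold change for the epicenter at DPI-1 was above 0 in 20 of 24, with a median of 0.87 against -0.12 over all tested rows. Their values ranged from -0.42 to 4.35 (SE 2.02, edgeR adjusted p 0.372) for Ccdc97, which was above all 3 members and had an SE over 3 times theirs. The medians of the neighbours were 0.99 in the rostral and 0.93 in the caudal segment. All 6 DPI-1 libraries lay above both sham libraries in 10 of 24, where 9.31% of all tested rows did so, and above all other 14 libraries in 0 of 24 (0.615% of tested rows). The median r of the neighbours was 0.455 with Ceacam1, 0.462 with Erf and 0.535 with Gsk3a. B3gnt8, a glycosyltransferase row past Ceacam1 in the order, had the highest r of a neighbour with Gsk3a, 0.805, while its log2 fold change for the epicenter at DPI-1 was 0.58 (SE 0.34, edgeR adjusted p 0.436).

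**Figure D5:**
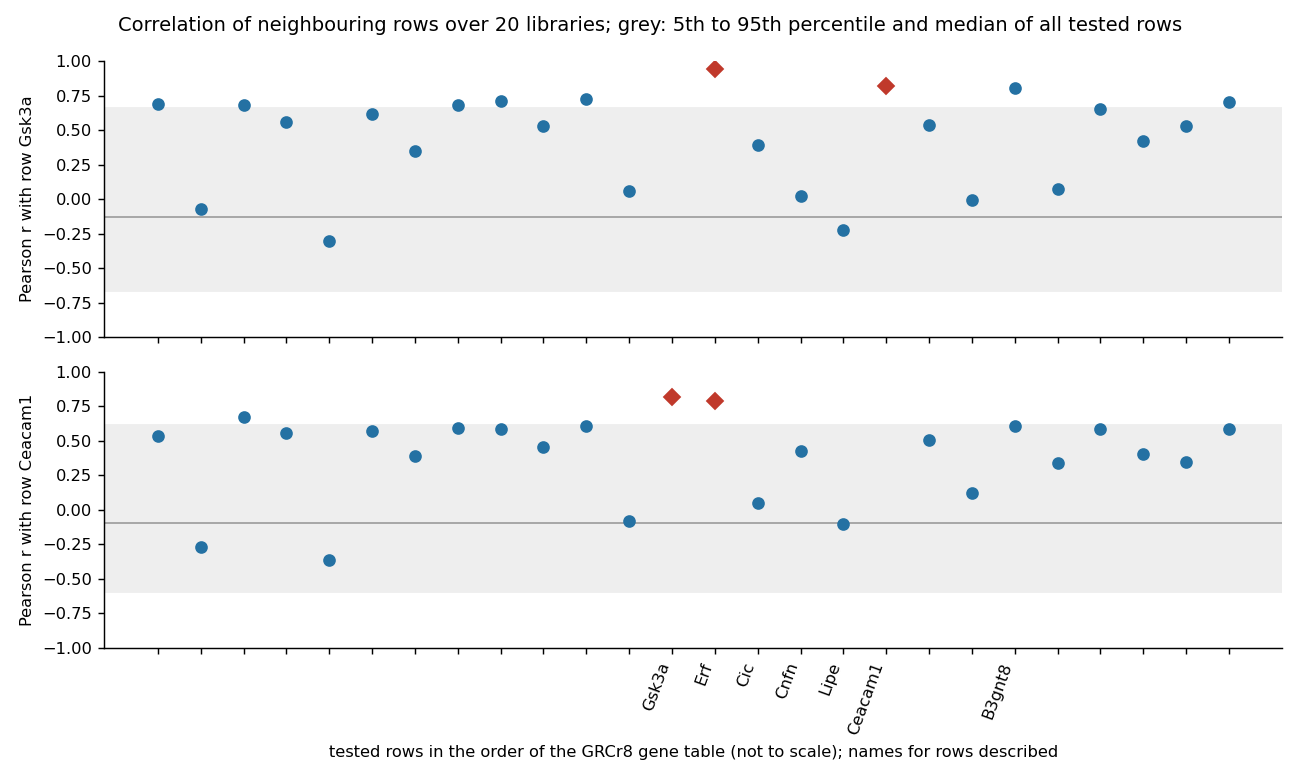
Pearson r over 20 libraries with Gsk3a (top) and with Ceacam1 (bottom) for tested neighbouring rows (circles) and the other members (diamonds), in gene table order and not to scale; the grey band is the 5th to 95th percentile of all tested rows and the line their median. With Gsk3a, Erf at 0.940 and Ceacam1 at 0.818 are above every neighbour shown, and Cic, Cnfn and Lipe between them range from -0.23 to 0.389.

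Relatives of the members were looked at as lists by name. Of 10 other CEACAM rows, 6 were tested, and edgeR called 0 of 6 for the epicenter at DPI-1 against sham (1 at an unadjusted p under 0.05, Ceacam3, where 13.4% of all tested rows had such a p, and 0 by DESeq2). Their log2 fold change was above 0 in 5 of 6, with a median of 1.07 against -0.12 over all tested rows. Ceacam3, the most abundant, had 1.34 (SE 0.51, edgeR adjusted p 0.308), Ceacam6 had 1.04 (SE 0.77), Ceacam12 had 0.40 (SE 0.43) and Ceacam18 had -0.23 (SE 0.37). Ceacam3 had an r of 0.784 with Gsk3a and 0.677 with Ceacam1. CEACAM genes are near-identical copies in part, and reads that fit several copies may have been split or dropped in counting, so these values are uncertain.

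Of 30 rows for ETS factors and ERK signalling, the setting in which Erf works, 19 were tested. In the same comparison edgeR called 0 of them. The ETS factor Fli1 was the 1 row at an unadjusted p under 0.05, where 13.4% of all tested rows had such a p. Fli1 was also the 1 row of this list called by DESeq2, which called 267 rows in this comparison. The log2 fold change was above 0 in 8 of 19, with a median of -0.375. Etv4, an ETS activator, had 1.05 (SE 0.60), and the ETS factors Erg and Etv1 had -0.90 (SE 0.52) and -0.21 (SE 0.31). Of 25 rows for GSK3 and its partners, 17 were tested and edgeR called 0. An unadjusted p under 0.05 was found for 4, among them Gsk3b, beside the same 13.4% of all tested rows. DESeq2 called 1, the casein kinase Csnk1d, among the same 267 rows. The log2 fold change was above 0 in 10 of 17, with a median of 0.12. Mapt, which encodes tau, had 0.12 (SE 0.35), the scaffold Axin1 had 1.10 (SE 0.76) and Axin2, a Wnt target, had -1.0 (SE 0.66). Fli1, Gsk3b and Csnk1d were named after their values were seen.

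Marker rows of other cell types were summed beside the DPI-1 levels. Erythrocyte rows (4 of 6 markers with a row, Alas2 at 0) summed to 131 to 206 CPM in sham and 209 to 514 at DPI-1, and oligodendrocyte rows (7 of 7, Mag at 0) to 51.7 to 80.1 and 89.4 to 147. Both sums were free of overlap with sham at DPI-1, as were the members and 9.31% of all tested rows. Neither sum set DPI-1 apart from later days. Erythrocyte rows reached 260 CPM at DPI-28, and oligodendrocyte rows 108 at DPI-14 and 128 at DPI-28. Neutrophil rows (8 of 8, S100a8 and Mpo at 0) summed to 42.1 to 82.6 CPM in sham and 18.3 to 47.5 at DPI-1, and microglia and macrophage rows (7 of 7, Aif1 and Tmem119 at 0) to 20.6 to 40.6 and 6.35 to 25.5. Endothelial rows (5 of 6, Kdr at 0) summed to 226 to 280 and 149 to 290, astrocyte rows (6 of 6) to 16.5 to 22.5 and 8.46 to 27.9, fibroblast rows (6 of 6) to 59.2 to 91.6 and 45.5 to 175, and neuron rows (8 of 8) to 214 to 288 and 237 to 415. Since several of these rows do not go with their symbols, the sums carry little about cell types, and their part in the members' levels was not tested.

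The levels of the members had an r of 0.055, -0.18 and -0.23 with the log2 depth of a library, and of 0.605, 0.657 and 0.735 with the first principal component, which holds 41.3% of the variance. Without the libraries numbered 3 the latter values were 0.493, 0.672 and 0.709. The part of this component in the DPI-1 levels was not tested.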

How the data were processed

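Spinal cord RNA was extracted with Trizol, depleted of ribosomal RNA and made into libraries with a KAPA RNA HyperPrep kit, per the labels' protocols. HISAT2, featureCounts and the build rn6 are named in the submitters' processing notes. Their versions, the annotation and the strand setting are not given in the sources used here, so reads of overlapping or antisense genes cannot be told apart. The authors deposited whole-number read counts per row, not normalised, in 1 table of 30452 rows per library. Rows without a symbol (4318 rows, 5.87% to 7.37% of reads) were left out, and 5336 named rows had 0 reads throughout.

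Counts were fitted with edgeR 4.0.16 in R 4.3.3: filterByExpr with a minimum count of 10 (12528 rows), TMM factors, and the quasi-likelihood test with 1 term for each of 10 groups and 10 residual degrees of freedom. Benjamini-Hochberg adjustment ran over all tested rows with a threshold of 0.05. TMM factors were 1.3 to 1.49 in the 4 libraries numbered 3 and 0.722 to 1.12 in the others. The common biological coefficient of variation was 0.45. Paired libraries of a group differed by more than counting noise (chi-square per degree of freedom 11.6 to 96.4), and p-values measure only the spread between libraries. The edgeR test of epicenter against adjacent segments at DPI-1 was tried on simulated counts with known changes and no replicate-number effect. The other comparisons and steps were not simulated.

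The alternatives were each library left out, a replicate block, no filter, DESeq2 1.42.0, scaling by DESeq2 size factors or by library totals alone, other pseudocounts, and only the groups compared. Those without all DPI-1 libraries, without both outlying replicate-2 libraries, and row counts without number 3 were chosen after seeing the data. Named rows are the members, neighbours between them, other neighbours in the outer 1% by r, the 3 most alike rows per member, and up to 4 of the most abundant rows per list. Some rows that this rule names are not reported here. Principal components used log2(CPM + 1). The members and lists were chosen with earlier results of these data known. A GRCr8 gene table gave gene order, and RefSeq GRCr8 the promoter sequences. Other steps used matplotlib 3.10.9, scipy 1.17.1, numpy 2.4.6 and pandas 2.3.3 under Python 3.11.15.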

Additional observations from a re-analysis of the deposited data

How the results depend on the processing

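The log2 fold changes of the members against sham and over time, 45 values, were recomputed 522 times under the alternatives. The sign turned in 28 cases, but in 0 of 108 for DPI-1 against sham and 0 of 99 for DPI-14 against DPI-1. With single libraries left out, the epicenter DPI-1 values ranged from 2.80 to 4.06 for Ceacam1, 2.30 to 3.995 for Erf and 2.57 to 3.43 for Gsk3a. In 234 recomputed position tests no member passed the threshold (lowest adjusted p 0.0646). The sign of the epicenter differences turned in 1 of 126 cases and that of the rostral to caudal differences in 10 of 108. The number of rows called by position did change. Without the low-count filter, epicenter against adjacent segments gave 50, 46 and 70 rows on days 1, 14 and 28, and rostral against caudal 25, 6 and 26. DESeq2 gave 1, 11 and 38 for the former and 1 for rostral against caudal at DPI-28. Only the groups compared gave 12 at DPI-14, and dropping the libraries numbered 3 gave 2 at DPI-14 and 1 at DPI-28. Leaving out 1 library gave 0 to 1 rows at DPI-1 (1 without caudal replicate 1), 0 to 2 at DPI-14 (2 without epicenter replicate 2) and 0 to 3 at DPI-28 (3 without caudal replicate 1). The cause was not tested.

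The labels do not tie replicate numbers to an animal, so what libraries of one number share is not known. Differences between numbers correlated between segments by 0.221 to 0.450 at DPI-1, -0.12 to 0.114 at DPI-14 and 0.610 to 0.687 at DPI-28. With the number as a replicate block, 3 rows were called for epicenter against adjacent segments at DPI-14 and 5 at DPI-28, and with day and number as the block 14 and 67. That last block took Gsk3a in the epicenter at DPI-28 from an edgeR adjusted p of 0.524 to 0.0646 at a log2 difference of 1.16 (SE 0.28), and no member passed the threshold under either block. The correlation of Erf with Gsk3a was 0.931 with number means removed, that of Ceacam1 with Erf 0.807 and with Gsk3a 0.812.

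After subtracting group means, Ceacam1 turned to an r of -0.2424 with Erf and -0.065 with Gsk3a, and Erf with Gsk3a had 0.739. Without the DPI-1 libraries the values were 0.397, 0.475 and 0.800. Leaving out single libraries gave 0.753 to 0.815, 0.795 to 0.868 and 0.930 to 0.951. With library totals alone, 1 member in place of 2 had all DPI-1 libraries above the others. With 2 libraries in each group, none of these comparisons can be set against a spread within more than 10 residual degrees of freedom.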
